A study of Mus musculus with 8 samples.

Results

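The cytosolic ribosomal protein genes encode the proteins of the small (40S) and large (60S) ribosomal subunits. They were taken from the deposited m6A peak lists by name, as every gene named Rpl or Rps followed by a digit, Rpsa, Rplp0, Rplp1 or Rplp2, without pseudogene names and without the S6 kinase genes. The rule took 17 of 15635 peaks in the Wtap flox/flox list (14 genes), 22 of 19185 peaks in the Wtap-HKO list (18 genes) and 8 of 3870 rows in the list of peaks called different between the genotypes (8 genes). Together, 21 genes had a peak in either genotype. The same rule took 89 protein-coding genes in RefSeq, so the other 68 had no peak. Among the 89 are 11 paralogs or related copies, of which 4 had a peak (Rpl22l1, Rpl36al, Rpl7l1 and Rps27l), and Rps19bp1, which encodes a nucleolar partner of RPS19 and not a ribosomal protein. It misses Fau, whose product carries a ribosomal protein behind a ubiquitin-like domain. With Fau added and the paralogs and Rps19bp1 left out, 78 ribosomal proteins proper were counted, 32 of the 40S and 46 of the 60S subunit.

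m6ARIP-seq was performed on livers of C57BL/6 mice at 8 weeks of age on a normal chow diet. Wtap flox/flox mice, with floxed Wtap alleles, were the controls, and Wtap-HKO mice carry the same floxed alleles and lose Wtap in hepatocytes through Cre driven by the albumin promoter, so other liver cells keep the gene. Each genotype had 2 IP and 2 input libraries from poly(A) RNA, and each library came from pooled livers. The lists give 1 value per peak and genotype with the replicates already combined, so no value below has an SD or a test, and how far a genotype difference exceeds replicate error is unknown. WTAP itself could not be checked from the peaks: Wtap had 3 peaks in each genotype. Of 6 hepatocyte markers, 4 had a peak in each genotype, and so did 2 of 3 markers each of Kupffer, endothelial and stellate cells and, of 3 cholangiocyte markers, 1 in the controls and 2 in Wtap-HKO. A peak list holds no expression level.

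m6A is a methyl mark that a nuclear writer complex, with WTAP as its regulatory subunit, places mostly within GGAC-like sequences, in many mRNAs near the stop codon and in long exons. Ribosomal protein mRNAs are short, abundant and stable, and are built from short exons. Most begin with a run of pyrimidines, the 5′ terminal oligopyrimidine (TOP) tract, through which mTOR signalling and LARP1 control their translation.

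The starts of 9 genes are shown, because the peaks fell near the start in some ribosomal protein genes and near the end in others. Each line gives 15 bases before and 15 bases from the RefSeq start that lies nearest to a peak of the gene (build GRCm38.p6), 5′ to 3′ on the strand of the gene, with the longest run of C and T in capitals.
Rps19: ccgcacggtgagtgagggCTCTgggtcgcg
Rpl23: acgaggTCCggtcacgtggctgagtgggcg
Rpl24: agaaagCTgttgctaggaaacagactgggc
Rpl34: CCTTCCTTTTCCTCTTCCggggacggtgct
Rps27l: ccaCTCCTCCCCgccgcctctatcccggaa
Rpl7l1: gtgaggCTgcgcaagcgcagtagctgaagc
Rpl18: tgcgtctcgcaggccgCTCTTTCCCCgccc
Rps9: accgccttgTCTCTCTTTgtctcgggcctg
Rpl14: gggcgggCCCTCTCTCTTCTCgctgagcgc

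The longest run was 18 bases in Rpl34, 14 in Rpl14, 10 in Rpl18 and 9 in Rps9 and Rps27l, but 4 in Rps19, 3 in Rpl23 and 2 in Rpl24 and Rpl7l1. These genes are a selection, and run length did not follow peak position in the others. Rps18, with a peak before its start, had a run of 11. Of ribosomal proteins proper with peaks toward the 3′ end, Rpl26 and Rpl41 had 3 and Rpsa 5. In the same group, Rpl13a had 13, Rpl4 11 and Rpl13 9. Over the ribosomal proteins proper, 27 of 68 RefSeq starts (39.7%) held a run of 8 or more, against 12.0% of all 32851 starts and 12.0% of the starts of mitochondrial ribosomal protein genes. Starts with such a run were found in genes with a peak (9 of 17 starts) and in genes without one (18 of 51 starts). A run is a feature of the window around the annotated start, and its absence says only that these letters are not in this window. The window includes bases before the start, which are not part of an mRNA that begins there. In the lines above, the run of Rps27l lay wholly before the start, and most of the run of Rpl34 did. The runs of Rps9 and Rpl14 crossed the start, and that of Rpl18 lay after it. The counts of runs are therefore not counts of TOP tracts. The start table held 69 of the 89 genes.

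Few ribosomal protein genes had an m6A peak. In Wtap flox/flox liver, 14 of 89 genes (15.7%, Wilson 95% interval 9.61 to 24.7) had a peak, where 36.0% of all 21896 protein-coding RefSeq genes had one. In Wtap-HKO liver, 18 of 89 (20.2%, 13.2 to 29.7) had a peak, where 42.0% of all genes had one. Among genes with a span under 10 kb the background was lower (22.9% in Wtap flox/flox, 27.3% in Wtap-HKO), beside 16.1% and 20.7% of the 87 ribosomal protein genes of that length, and the intervals of the latter (9.83 to 25.2 and 13.5 to 30.4) held the background. The background also counts genes that liver does not express, which the lists cannot show.

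Of the 32 genes of the 40S subunit, 2 had a peak in Wtap flox/flox (Rps9 and Rpsa) and 4 in Wtap-HKO (Rps14, Rps18, Rps19 and Rpsa). Of the 46 genes of the 60S subunit, 8 had a peak in Wtap flox/flox (Rpl4, Rpl13a, Rpl14, Rpl18, Rpl26, Rpl29, Rpl34 and Rpl41) and 10 in Wtap-HKO. The intervals of the subunits overlapped in each genotype (1.73 to 20.1% and 9.09 to 30.7% in Wtap flox/flox). No peak in either genotype was listed for 27 genes of the 40S and 35 of the 60S subunit. These include Rplp0, Rplp1 and Rplp2, which form the stalk that recruits elongation factors, Rpl5 and Rpl11, which bind MDM2 when ribosome assembly stalls, Rps6, the substrate of S6 kinase, and Rps3, at the mRNA entry channel. A gene without a row had no peak past the caller's threshold; it may still carry m6A.

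Mitochondrial ribosomal protein genes and initiation factor genes had peaks far more often. The 78 mitochondrial ribosomal protein genes encode the other ribosome of the cell, and their mRNAs are not classed as TOP mRNAs. Of these, 54 (69.2%, interval 58.3 to 78.4) had a peak in Wtap flox/flox and 49 (62.8%, 51.7 to 72.7) in Wtap-HKO. Of 32 translation initiation factors and their binding proteins, 23 (71.9%, 54.6 to 84.4) had a peak in each genotype. Of 24 other genes with TOP mRNAs or hosts of small nucleolar RNAs, 9 (37.5%, 21.2 to 57.3) had a peak in Wtap flox/flox, among them the elongation factor genes Eef1a1 and Eef2. The intervals of the mitochondrial ribosomal proteins and initiation factors did not overlap those of the cytosolic ribosomal proteins in either genotype. They cover counting error only. The shares were not matched for gene span. In Wtap flox/flox, the median span behind the peaks was 6443 nt for mitochondrial ribosomal proteins and 20164 nt for initiation factors. For the genes of the rule it was 3572 nt.

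**Figure D1:**
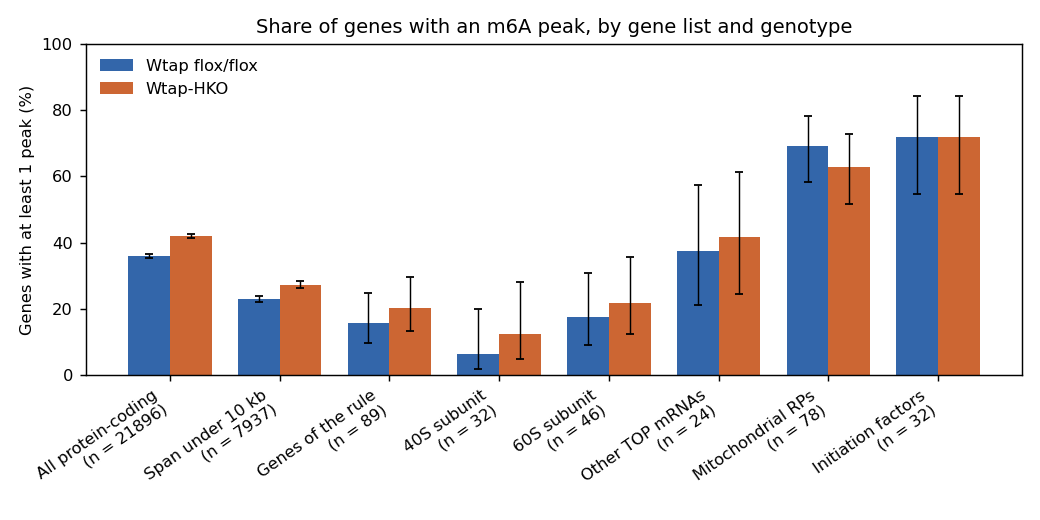
Bars give the percentage of genes of each list with at least 1 peak in Wtap flox/flox (blue) and Wtap-HKO (orange); error bars are Wilson 95% intervals and n is the number of genes. The bars of the 40S and 60S genes lie between 6.25% and 21.7%, below those of the mitochondrial ribosomal proteins and the initiation factors, which lie between 62.8% and 71.9%.

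In Wtap flox/flox, the peaks lay toward the 3′ end. An edge was within 200 nt of the 3′ end of the RefSeq gene span for 9 of 17 peaks (52.9%), where 10.1% of all placed peaks and 20.1% of those in genes under 10 kb lay so close. An edge was within 200 nt of the 5′ end for 3 of 17 (17.6%, beside 10.7% of all and 17.0% in short genes). In Wtap-HKO, 7 of 22 (31.8%, beside 8.29% of all and 15.7% in short genes) lay at the 3′ end and 5 of 22 (22.7%, beside 18.1% and 26.7%) at the 5′ end. The median span of the genes behind these peaks was 3572 nt in the controls and 3822 nt in Wtap-HKO, so 200 nt is a larger part of them than of most genes. By relative position the contrast with all peaks was small: the midpoint lay in the final 10% of the span or beyond its 3′ end for 9 of 17 peaks in Wtap flox/flox (52.9%, beside 42.4% of all and 23.3% in short genes) and 8 of 22 in Wtap-HKO (36.4%, beside 35.8% and 17.9%). Both counts take in Rpl26, whose midpoint fell beyond the end of the span. The mitochondrial ribosomal protein genes, which are short too, had 38.6% and 30.2% of their peaks within 200 nt of the 3′ end. Spans include introns, and whether a peak lay in coding sequence or in a UTR was not assigned, since no transcript models were used here.

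**Figure D2:**
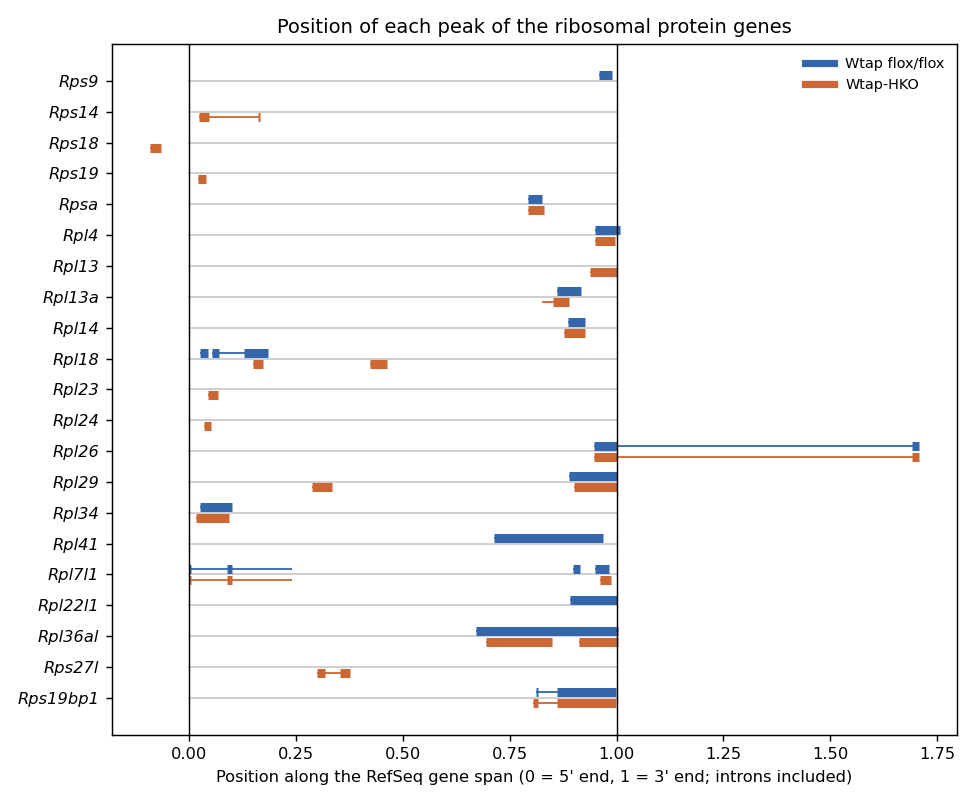
Each row is a gene, drawn as its RefSeq span from the 5′ end (0) to the 3′ end (1); thick bars are the exonic blocks of Wtap flox/flox (blue) and Wtap-HKO (orange) peaks, and thin lines join blocks of 1 peak. Of the 7 genes with a peak in Wtap-HKO only, Rpl13 has it at the 3′ end and the other 6 have it on the 5′ side of the midpoint. That of Rps18 lies outside the span, before its 5′ end, and is shared with a peak named for Vps52. The 3 genes with a peak in Wtap flox/flox only (Rps9, Rpl41 and Rpl22l1) have it at the 3′ end.

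Within the 40S subunit, peaks were weak toward the 3′ end and were listed at the start in Wtap-HKO only. Rps9, a protein of the body of the small subunit, had 1 Wtap flox/flox peak of 90 nt (chromosome 7, 3706778 to 3706867), 30 nt from its 3′ end, with a fold enrichment of IP over input of 1.31. Rpsa, also known as the laminin receptor precursor, had a peak in both genotypes (chromosome 9, 120131412 to 120131562 in Wtap flox/flox), enriched 1.31-fold in Wtap flox/flox, against 1.67-fold in Wtap-HKO. These folds were among the lowest of their lists, below the 2nd percentile.

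Rps14, Rps18 and Rps19 had a peak in Wtap-HKO only. Rps19, mutated in Diamond-Blackfan anaemia, had a peak of 91 nt (chromosome 7, 24884699 to 24884789) with a fold enrichment of 2.90 and a false discovery rate of 2.3e-08. It began 23 nt downstream of the nearest RefSeq start, the one shown above. All of its bases lay within the 300-base windows around RefSeq starts, and they held GGAC once, in tcgtgccgGGACcgcgggaa (chr7:24884735-24884754, plus strand, GGAC in capitals). Read on the strand of the gene only, GGAC occurs in 65.6% of all such windows. Among other Wtap-HKO peaks, those of Rps27l and Rps18 held no GGAC within such windows (176 of 205 nt and 4 of 90 nt covered). The start peak of Rpl7l1 held none in either genotype (38 of 151 nt). The Rpl18 peak nearest its start held 1 (128 of 211 nt), and the Rpl34 peak, given below, held 1. The Wtap flox/flox peak of Rpl34 held none (22 of 268 nt). Bases outside the windows were not searched. Rps14, of the platform of the small subunit, had a peak with a fold enrichment of 6.93 and a false discovery rate of 6.8e-05, 91 nt from the 5′ end. Rps18, of the head of the small subunit, had a peak of 90 nt with a fold enrichment of 3.73 and the weakest false discovery rate of these peaks, 0.0011. It lay 247 nt before the RefSeq start of Rps18, and all of its 90 exonic nt were shared with a peak named for Vps52, on the opposite strand, with a fold enrichment of 4.29.

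Within the 60S subunit, 7 genes had a peak in both genotypes, and in each of them peaks of both genotypes overlapped. These lay toward the 3′ end in Rpl4, Rpl13a, Rpl14, Rpl26 and Rpl29, and on the 5′ side in Rpl18 and Rpl34. Rpl4 lines the exit tunnel of the nascent peptide. Its peak began at position 64178307 of chromosome 9 in both genotypes and was enriched 3.07-fold in Wtap flox/flox, against 2.61-fold in Wtap-HKO. Rpl29 had a peak that ended at its 3′ end (chromosome 9, 106431272 to 106431568 in Wtap flox/flox), enriched 4.09-fold in Wtap flox/flox, against 2.89-fold in Wtap-HKO. A further Rpl29 peak, 772 nt from the 5′ end (106429661 to 106429780), was listed in Wtap-HKO only, with a fold enrichment of 4.25. The 3′ peaks of Rpl4 and Rpl29 had very low false discovery rates, with a log10 of -236 and -319 in Wtap flox/flox. The folds in Wtap-HKO were lower on the list's own scale too: Rpl4 went from the 20.0th to the 10.8th percentile and Rpl29 from the 34.8th to the 14.7th. By false discovery rate, where a higher percentile is a lower rate, Rpl4 rose from the 94.0th to the 98.3rd percentile. Rpl29 fell from the 95.8th to the 92.7th.

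Rpl13a, a component of the GAIT complex that silences inflammatory mRNAs, had a peak 263 nt from its 3′ end in Wtap flox/flox (chromosome 7, 45125826 to 45126004). Its fold enrichment was 2.78 in the controls and 1.71 in Wtap-HKO. Rpl14 had a fold enrichment of 1.55 and 1.63, in that order, and Rpl26, which binds the Trp53 mRNA, had 2.82 and 3.08. The Rpl26 peak had the same edges in both genotypes (chromosome 11, 68904378 to 68906636). Its main block of 157 nt ended at the RefSeq end of the gene, and a block of 51 nt lay beyond it. Rpl34 was the exception by position: its peak lay 89 nt from the 5′ end in Wtap flox/flox (chromosome 3, 130730042 to 130730309) and 59 nt in Wtap-HKO. Its fold enrichment was 3.95 in the controls and 2.76 in Wtap-HKO. The Wtap-HKO peak reached the start shown above and held its GGAC, in tcttccggGGACggtgctca (chr3:130730321-130730340, minus strand), and the Wtap flox/flox peak ended before it. The start windows covered 52 of the 269 nt of the Wtap-HKO peak, and the rest was not searched.

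Rpl18 had the highest fold enrichment of these genes, in peaks far upstream of its start. In Wtap flox/flox, the peaks at 45715607 to 45715697 and 45715756 to 45716451 of chromosome 7 had a fold enrichment of 6.15 and 43.0, the latter at the 99.1st percentile. In Wtap-HKO, the peaks at 45716271 to 45716391 and 45717738 to 45717948 had 16.3 and 4.46. All of them ended before the RefSeq start at 45718071 that is shown above, the only start of Rpl18 in the start table, although the RefSeq span of the gene begins at 45715467. They lay within Sphk2, the sphingosine kinase gene on the opposite strand. The Wtap-HKO peak nearest the start shared 175 of its 211 exonic nt with a peak named for Sphk2, which had a fold enrichment of 4.36. Whether the libraries kept the strand is not given in the sources used here, so reads of Sphk2 and Rpl18 cannot be told apart there. The other folds of 60S peaks were between 1.55 and 4.25 where both genotypes had a peak in the gene.

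In Wtap flox/flox only, Rpl41, the shortest ribosomal protein, had a peak of 270 nt near its 3′ end (chromosome 10, 128548144 to 128548413) with a fold enrichment of 1.84. In Wtap-HKO only, Rpl13 had a peak that ended at its 3′ end (chromosome 8, 123105065 to 123105244) with a fold enrichment of 2.25, and Rpl23 and Rpl24 had peaks near their starts. Rpl23, a regulator of MDM2, had a fold enrichment of 4.16 at a false discovery rate of 1.1e-05, 212 nt after its start (chromosome 11, 97782107 to 97782227). Rpl24, which bridges the subunits, had a fold enrichment of 6.78 at 7.4e-05, 176 nt after its start (chromosome 16, 55966451 to 55966540). Fau, which the name rule misses, had no peak in either genotype.

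Among the paralogs and Rps19bp1, the strongest peaks were those of Rps19bp1 and the start of Rpl7l1. Rps19bp1, also called AROS, an activator of SIRT1, had a peak over its 3′ end of 527 nt in Wtap flox/flox (chromosome 15, 80260615 to 80261307) and 557 nt in Wtap-HKO. Its fold enrichment was 25.6 in Wtap flox/flox, at the 95.7th percentile, and 12.0 in Wtap-HKO, at the 76.9th. Rpl36al, a paralog of Rpl36a, had 1 peak of 442 nt enriched 3.76-fold in Wtap flox/flox (chromosome 12, 69182731 to 69183172). In Wtap-HKO, the same stretch held 2 shorter peaks with a fold enrichment of 2.77 and 1.74. Of the 442 exonic nt in Wtap flox/flox, 273 were shared with a peak of an overlapping gene on the same strand, which carries only a clone name, with a fold enrichment of 3.91, so the reads there cannot be assigned to Rpl36al alone.

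Rpl7l1, a paralog of Rpl7 that takes part in early 60S assembly, was the only gene of the rule with peaks of both genotypes at both ends. At its 3′ end (chromosome 17, 46774057 to 46774356 in Wtap flox/flox), the fold enrichment was 3.38 in the controls and 2.15 in Wtap-HKO. At its start (46780548 to 46782656, 3 blocks with the same edges in both genotypes), it was 3.78 in the controls and 9.69 in Wtap-HKO. A short peak of 150 nt near the 3′ end, with a fold enrichment of 2.38, was listed in Wtap flox/flox only. The start peak went from the 30.6th to the 70.6th percentile, and the 3′ peak from the 24.8th to the 5.57th. Rps27l, a paralog of Rps27 and a p53 target, had a peak in Wtap-HKO only, which began exactly at the RefSeq start shown above (chromosome 9, 66946086 to 66946464). Its fold enrichment was 5.52, with a log10 false discovery rate of -65.4. Rpl22l1, the paralog of Rpl22, had a peak in Wtap flox/flox only, which ended at its 3′ end (chromosome 3, 28807216 to 28807424), with a fold enrichment of 3.55. Of its 209 nt, 148 were shared with a peak of an unnamed gene on the opposite strand, with a fold enrichment of 3.51.

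Set side by side, more of the overlapping peaks had a lower than a higher fold enrichment in Wtap-HKO. An exonic base was common to a Wtap-HKO peak and 12 of the 17 Wtap flox/flox peaks (70.6%, beside 80.0% of all peaks), which formed 13 overlapping pairs in 11 genes. The fold enrichment was lower in Wtap-HKO in 9 pairs and higher in 4, with a median log2 ratio of Wtap-HKO over Wtap flox/flox of -0.50, where 13184 pairs of all genes had a median of 0.01. The 4 higher pairs were in Rpsa, Rpl14, Rpl26 and the start of Rpl7l1. By percentile within each list, which a common scale factor does not change, the same count of 9 pairs was lower, by a median of 15.8 percentile points over the 13 pairs, where all pairs were lower by a median of 3.36. Of the 9 lower pairs, 4 were in Rps19bp1, Rpl7l1 and Rpl36al, the last with 2 pairs from the same Wtap flox/flox peak. Among the ribosomal proteins proper, 5 of 8 pairs were lower, with a median log2 ratio of -0.37.

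The position of the peak split all genes. With the midpoint on the 5′ side of the span, 31.3% of all pairs were lower in Wtap-HKO, and on the 3′ side 58.2% were (28.9% and 61.2% in genes under 10 kb). Of the pairs of the genes the rule takes, 7 of 10 on the 3′ side were lower, but of those of ribosomal proteins proper 3 of 6, with Rpl4, Rpl13a and Rpl29 lower and Rpsa, Rpl14 and Rpl26 higher. Of the 3 on the 5′ side, those of Rpl34 and Rpl18 were lower, where most pairs of all genes were higher, and that of Rpl7l1 was higher. The Rpl18 pair lay upstream of its start, within Sphk2 on the opposite strand, so it cannot be assigned to Rpl18 alone.

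**Figure D3:**
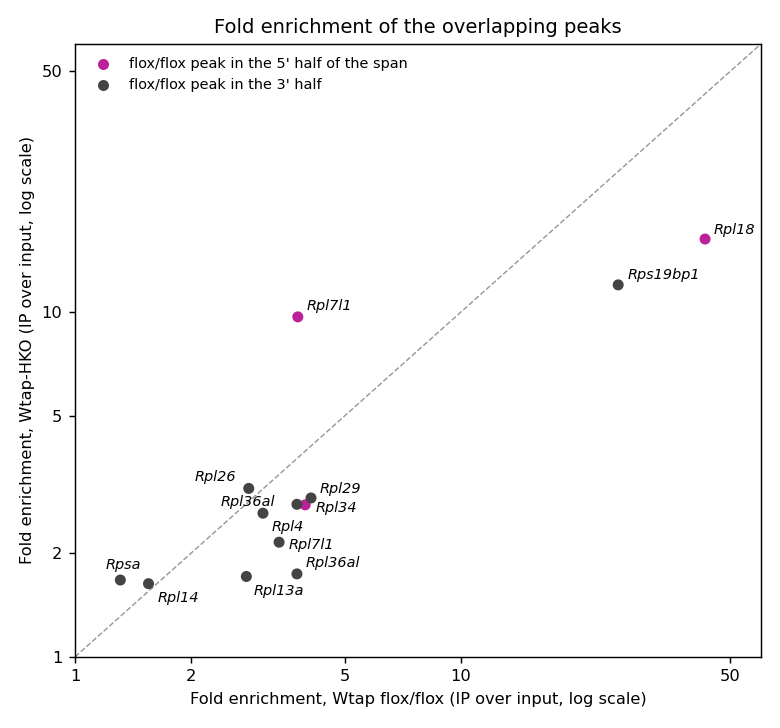
Each point is a pair of overlapping peaks, with the fold enrichment (IP over input, log scales) in Wtap flox/flox on the x axis and Wtap-HKO on the y axis; the dashed line marks equal values. Below the line are 9 of 13 pairs, and the start peak of Rpl7l1 lies farthest above it, at 3.78 against 9.69.

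A peak in 1 genotype only was no rarer in these genes than elsewhere. Of the 14 genes with a Wtap flox/flox peak, 3 (21.4%, interval 7.57 to 47.6) had none in Wtap-HKO, where 8.77% of all such genes had none. Of the 18 genes with a Wtap-HKO peak, 7 (38.9%, 20.3 to 61.4) had none in Wtap flox/flox, where 21.9% of all such genes had none. Both intervals held the value of all genes. Of these 7 genes, Rps14, Rps18, Rpl23 and Rpl24 were lost when a false discovery rate under 1e-05 was required, and these peaks covered 90 to 121 exonic nt, where the median of the list was 240 nt.

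The list of peaks that the authors called different between the genotypes held 8 of the 89 genes (8.99%, interval 4.63 to 16.7), where it held 13.5% of all protein-coding genes. Among genes with a span under 10 kb it held 8 of 87 (9.20%), beside 9.97% of all genes of that length, so the shares were close. No 40S gene was in it. The 60S genes in it were Rpl13, Rpl13a, Rpl18 and Rpl41, and the others were Rpl36al, Rpl7l1, Rps27l and Rps19bp1. Of the 211 nt of the Rpl18 row, 205 were shared with a row named for Sphk2, on the opposite strand. Of the 471 nt of the Rpl36al row, 273 were shared with a row of the overlapping gene with a clone name. These 2 rows cannot be assigned to Rpl18 and Rpl36al alone. In Rpl7l1 the list held the 3′ peak and not the start peak. Its combined fold enrichment over both genotypes ran from 1.36 in Rpl41 to 17.4 in Rps19bp1. None of the Wtap-HKO peaks near the starts of Rps14, Rps18, Rps19, Rpl23 and Rpl24 overlapped a row of it.

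The fold enrichments were low for the lists they came from. The median was 3.38 over the 17 Wtap flox/flox peaks, where the list had 5.51, and 2.99 over the 22 Wtap-HKO peaks, where the list had 5.93. The median percentiles were 24.8 and 16.0. Over the ribosomal proteins proper alone, the medians were 2.82 in the controls and 2.99 in Wtap-HKO, at percentiles of 16.5 and 16.0. The lower median fold in Wtap-HKO was thus not seen without the paralogs and Rps19bp1. These medians are over different peaks in the 2 genotypes, and of the 8 overlapping pairs of ribosomal proteins proper, 5 were lower in Wtap-HKO. By false discovery rate these peaks were not low in Wtap flox/flox, with a median percentile of 58.6, and were at 41.0 in Wtap-HKO. A fold below 2 was found for 4 peaks in each genotype (23.5% and 18.2%, where the lists had 5.05% and 3.97%). Mitochondrial ribosomal protein genes also had low folds, with a median of 3.70 in the controls and 2.95 in Wtap-HKO.

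**Figure D4:**
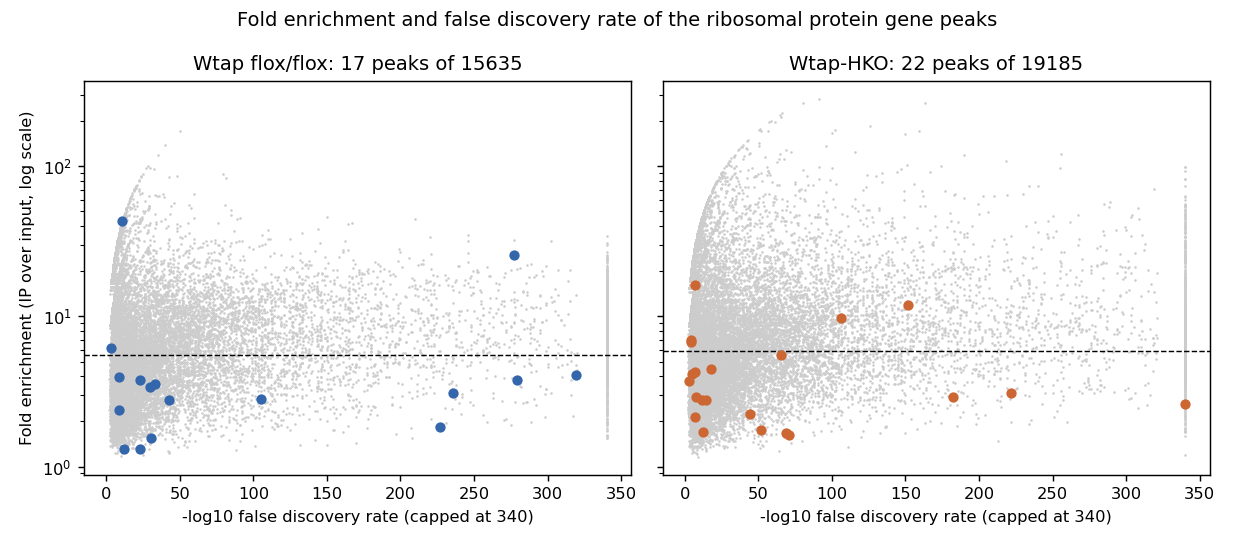
Fold enrichment (IP over input, log scale) is plotted against -log10 of the false discovery rate (capped at 340) for all peaks (grey) and those of the ribosomal protein genes (coloured) in each genotype; the dashed line is the median of all peaks. Most coloured points lie below the line, 14 of 17 in Wtap flox/flox and 17 of 22 in Wtap-HKO.

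Depth, expression and read sharing limit these values. The lists hold no counts, so the depth behind each peak is unknown. RefSeq holds 321 pseudogenes named for Rpl or Rps genes, and only Rpl36a-ps1 had a peak, 1 in each genotype; how reads shared by a gene and its copies were placed was not tested.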

How the data were processed

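m6ARIP-seq libraries (2 IP and 2 input per genotype, all 8 labelled by genotype) were cleaned with fastp 0.19.11 and aligned by the authors with BWA 0.7.12 to GRCm38, per the labels and the study's methods; BWA does not split reads over introns. The authors called peaks with exomePeak and deposited lists with the replicates of a genotype combined, by a rule not given in the sources used here. The deposited fold enrichment is a ratio, IP divided by input. The deposited false discovery rate is a score on the log10 scale. The third list also holds the authors' comparison between genotypes (log2 ratios, p-values and rates), which was not used.

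Peaks were selected by gene name and placed on RefSeq gene spans (GRCm38.p6) of the same name, which matched 90.4% of the rows of each genotype's list and all rows of the ribosomal protein genes. Overlap required at least 1 exonic base on the same strand. Percentiles are ranks within a list. No test was run, since no value per library is given. All genes the rule found are named, and 1 gene outside it is not reported here. Overlap and distances were tested on simulated peaks. Python 3.11.15, pandas 2.3.3 and scipy 1.17.1 were used. Members and gene lists were chosen with earlier results of these data known.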

Additional observations from a re-analysis of the deposited data

How the results depend on the processing

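Of 45 alternative values for 15 results, 38 stayed within 1.5 times the count or within the counting interval of the value reported. Counts and percentiles cannot change sign. Only the gaps in share could, and none of them did. The gap between the share of ribosomal protein genes with a peak and that of all genes was -20.3 percentage points for the controls and -21.8 for Wtap-HKO. Among genes with a span under 10 kb it was -6.85 and -6.63. With both sets limited to genes with a peak in either genotype, the gap was -13.0 for the controls and -7.30 for Wtap-HKO. Those are shares of genes with a peak and not of all genes, so their size cannot be set against the gaps above. Counting only ribosomal proteins proper, an alternative chosen after the data were seen, left 5 peaks at the 3′ end in the controls and 4 in Wtap-HKO. A limit of 100 nt left 3 peaks at the 5′ end in Wtap-HKO. The ribosomal proteins proper held 5 of the 9 overlapping pairs that were lower in Wtap-HKO. The gap narrowed under 10 kb because the share of all genes fell, from 36.0% to 22.9% and from 42.0% to 27.3%, while that of the ribosomal protein genes hardly moved. No replicate could be left out, and the counts of genes did not change by more than 1.5 times with a stricter fold, a stricter false discovery rate or matching by span. No paired analysis was possible because the lists combine the replicates and no result comes from a test.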

Other observations

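Among the other genes with TOP mRNAs or hosting small nucleolar RNAs, the fold enrichment was low too. The 12 Wtap flox/flox peaks of 9 such genes had a median fold enrichment of 2.14 and a median percentile of 7.00, and the 13 Wtap-HKO peaks of 10 genes had 2.39 and 8.35. Eef1a1, Eef1b2, Eef1d and Eef2, which encode elongation factors, had a peak in both genotypes, Eef1g and Btf3 in Wtap-HKO only and Eif3l in Wtap flox/flox only. No such peak lay within 200 nt of the 5′ end in the controls, and 1 did in Wtap-HKO.

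Of the 78 mitochondrial ribosomal protein genes, 54 had a peak in the controls and 49 in Wtap-HKO, and the intervals given above for the genotypes overlapped. The share over all genes was 36.0% and 42.0%. Their peaks within 200 nt of the 5′ end were 9 of 70 in the controls and 21 of 63 in Wtap-HKO (12.9% and 33.3%), where the share rose over all peaks too, from 10.7% to 18.1% (17.0% to 26.7% in genes under 10 kb).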
